A study of Mus musculus with 12 samples.

Results

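The brush border is the carpet of microvilli on the luminal side of absorptive epithelial cells. The 36 genes described here encode its actin core, motors, intermicrovillar links, membrane scaffolds and surface enzymes. They were taken by name from the normalized count table, in which all 36 were found among 48795 Ensembl genes, and they were read in all 12 libraries. Total RNA came from mouse colonic organoids, epithelial structures grown in Matrigel from isolated colon crypts, of C57BL/6 background. One genotype was wild type (WT) and the other is labelled AhR deficient and is called KO here. Organoids of either genotype were kept with Wnt-3A, Noggin, R-spondin-1 and EGF, called WENR medium (the stem cell condition, 0 days without Wnt-3A), or left for 3 days in medium free of Wnt-3A (the differentiated condition), which gave 4 groups of 3 libraries. The sources used here give no age, sex or allele of the deficiency. They also do not say whether a group's 3 libraries stem from different mice, so every p-value refers to the scatter of these libraries, which may be technical.

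A microvillus holds parallel actin filaments that are bundled by villin, espin and plastins and capped at the tip by Eps8. Class I myosins and ezrin tie them to the membrane. Neighbouring microvilli are linked at their tips by the cadherin-like proteins Cdhr2 and Cdhr5, whose tails are held by Ush1c, Anks4b, Calml4 and the motor Myo7b. Hydrolases such as alkaline phosphatase and the meprins sit in the outer membrane. In the intestine the structure is assembled as cells leave the crypt and mature. AhR, the aryl hydrocarbon receptor, is a ligand-activated transcription factor that binds DNA at a site with the core GCGTG.

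The libraries held 25057534 to 99023592 reads assigned to genes. These were recovered from the normalized counts, in which 1 read is worth between 0.539 and 2.27. Quoted alternatives are edgeR and DESeq2 on those reads and limma after quantile normalization. Levels below are the normalized counts deposited by the authors, and log2 changes ± SE and adjusted p come from 1 limma fit of all 12 libraries on log2(normalized count + 1), with Benjamini-Hochberg adjustment over 14856 genes and calls made under 0.05. Ahr itself stood at 1762, 1746 and 1909 in WT stem and 2503, 2831 and 2690.3 in KO stem libraries, and at 2127, 2236 and 2260.0 and 3824, 3356 and 3110.0 in the differentiated ones, so it was higher in every library labelled AhR deficient. A count over the whole gene cannot show whether the targeted part is transcribed and does not check the label. Cyp1b1, a cytochrome P450 gene induced through AhR, lay between 269 and 571 in the KO stem libraries against 8502, 7479 and 8453 in WT, and at no more than 20.6 in the KO differentiated libraries against 574, 679.6 and 634 in WT. The summed epithelial markers (Epcam, Cdh1, Krt8, Krt18 and Krt19) were present in all libraries, while small intestinal enterocyte markers summed to 22.8 to 38.2 in the stem cell condition and to 360 to 1713 after differentiation, in each library under the sum of the colonocyte markers given below. One library stood apart, since WT stem library 1 held 22036 summed normalized counts of 10 fibroblast markers, against 51.4 to 638 in the other 5 stem libraries. That library was also the lowest of its group for 25 of the 35 brush border genes tested (71.4%, beside 39.5% of all genes tested). KO differentiated library 1 was the lowest of its group for 28 (80.0%, beside 40.0%). Where the call of a brush border gene changes without either of them, this is said below. The part of these libraries in the results was not tested.

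For 29 of the 36 genes a promoter window is held by RefSeq (GRCm38.p6), in 41 windows, of which the 250 bases before the start were searched on both strands for GCGTG (the AhR core), CATAAA (a Cdx site) and CAAAGTC (an Hnf4 site). Matches did not share letters with one another. Those shown belong to genes on which the results turn: Cdhr2 and Alpi, lower in KO after differentiation, Tmigd1 and Myo1a, lower in KO in both conditions, and the plastin pair Pls1 and Pls3, which moved in opposite directions. Capitals mark matched letters on either strand.
Cdhr2, chr13:54701213-54701462, plus strand: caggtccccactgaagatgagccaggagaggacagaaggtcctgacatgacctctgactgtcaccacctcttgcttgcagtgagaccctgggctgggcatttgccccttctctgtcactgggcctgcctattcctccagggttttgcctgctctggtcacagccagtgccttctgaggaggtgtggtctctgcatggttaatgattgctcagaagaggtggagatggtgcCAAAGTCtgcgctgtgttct
Alpi, chr1:87101607-87101856, minus strand: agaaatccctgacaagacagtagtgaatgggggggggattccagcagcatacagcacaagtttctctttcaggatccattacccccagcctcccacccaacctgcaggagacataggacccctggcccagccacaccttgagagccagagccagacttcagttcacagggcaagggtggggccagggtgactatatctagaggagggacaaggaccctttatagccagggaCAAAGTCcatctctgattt
Tmigd1, chr11:76901909-76902158, plus strand: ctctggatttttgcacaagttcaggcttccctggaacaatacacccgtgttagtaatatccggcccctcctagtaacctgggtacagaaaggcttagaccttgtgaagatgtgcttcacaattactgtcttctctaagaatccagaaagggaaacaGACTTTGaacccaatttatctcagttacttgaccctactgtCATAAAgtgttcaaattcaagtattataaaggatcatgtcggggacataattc
Myo1a, chr10:127705006-127705255, plus strand: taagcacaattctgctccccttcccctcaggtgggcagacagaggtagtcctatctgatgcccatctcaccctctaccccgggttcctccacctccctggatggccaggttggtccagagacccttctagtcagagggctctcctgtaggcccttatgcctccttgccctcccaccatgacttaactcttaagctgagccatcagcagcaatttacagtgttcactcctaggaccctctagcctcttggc
Pls1, chr9:95845280-95845529, minus strand: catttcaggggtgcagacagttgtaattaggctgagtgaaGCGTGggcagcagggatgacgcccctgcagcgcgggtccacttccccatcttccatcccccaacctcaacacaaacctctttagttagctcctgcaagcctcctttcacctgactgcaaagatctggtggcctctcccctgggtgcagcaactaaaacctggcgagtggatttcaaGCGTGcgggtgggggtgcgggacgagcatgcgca
Pls3, chrX:75875183-75875432, minus strand: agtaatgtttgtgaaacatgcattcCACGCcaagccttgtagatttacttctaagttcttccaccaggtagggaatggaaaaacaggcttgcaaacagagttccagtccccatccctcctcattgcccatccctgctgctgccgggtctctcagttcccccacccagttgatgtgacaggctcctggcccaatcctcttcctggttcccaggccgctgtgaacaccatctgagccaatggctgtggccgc
The Hnf4 letters began 20 bases before the start of Cdhr2 and 19 bases before that of Alpi, and the AhR core lay at 2 places before Pls1 and at 1 in the Pls3 window printed, which is 1 of 3 windows listed for that gene. In Tmigd1, with 2 windows, the one printed held the Hnf4 and the Cdx letters and the other one an AhR core, and the Myo1a window held none of the 3 motifs. Among the genes with a window the AhR core was present in 11 of 29 (37.9%), against 30.9% of all 27025 genes with windows, the Cdx letters in 5 (17.2% against 12.4%) and the Hnf4 letters in 4 (13.8% against 4.33%), which were Alpi, Cdhr2, Ggt1 and Tmigd1. A gene with more windows has more room for a match. Per window the shares were 31.7% against 28.2% for the AhR core, 12.2% against 10.8% for Cdx and 9.76% against 3.84% for Hnf4. None of the 5 adhesion genes held the AhR core in these windows, nor did Vil1, Myo1a or Mep1a. A match is a description of letters, and no match says only that the letters are not in this window.

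Divided by exon length, brush border transcripts ran from 0.407 to 19559 normalized counts per kb in WT differentiated libraries. Ezr, which encodes the membrane linker ezrin, was the highest in the stem cell condition at 14118 normalized counts per kb in WT (libraries 13513 to 14548) and 13930.4 in KO, followed by Vil1 with 8153 and 7681. After differentiation Vil1 led in WT at 19559 per kb, followed by Ezr with 17972, Cdhr5 with 17356 and Cdhr2 with 17066. The library ranges of these neighbours overlapped for Ezr, Cdhr5 and Cdhr2 (17352 to 18310.4, 15499 to 18684 and 16549.9 to 17369), so their order is not resolved. In KO differentiated libraries Ezr came first at 16629 per kb, with Vil1 at 14350.2, Cdhr5 at 8478 and Cdhr2 at 7311. At the low end in WT differentiated libraries were Ggt1 at 6.79, Anpep at 2.9, Dpp4 at 0.423 and Pdzk1 at 0.407 per kb. In bulk RNA, fewer cells with a brush border and less RNA per cell cannot be told apart, which holds for all results below.

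**Figure D1:**
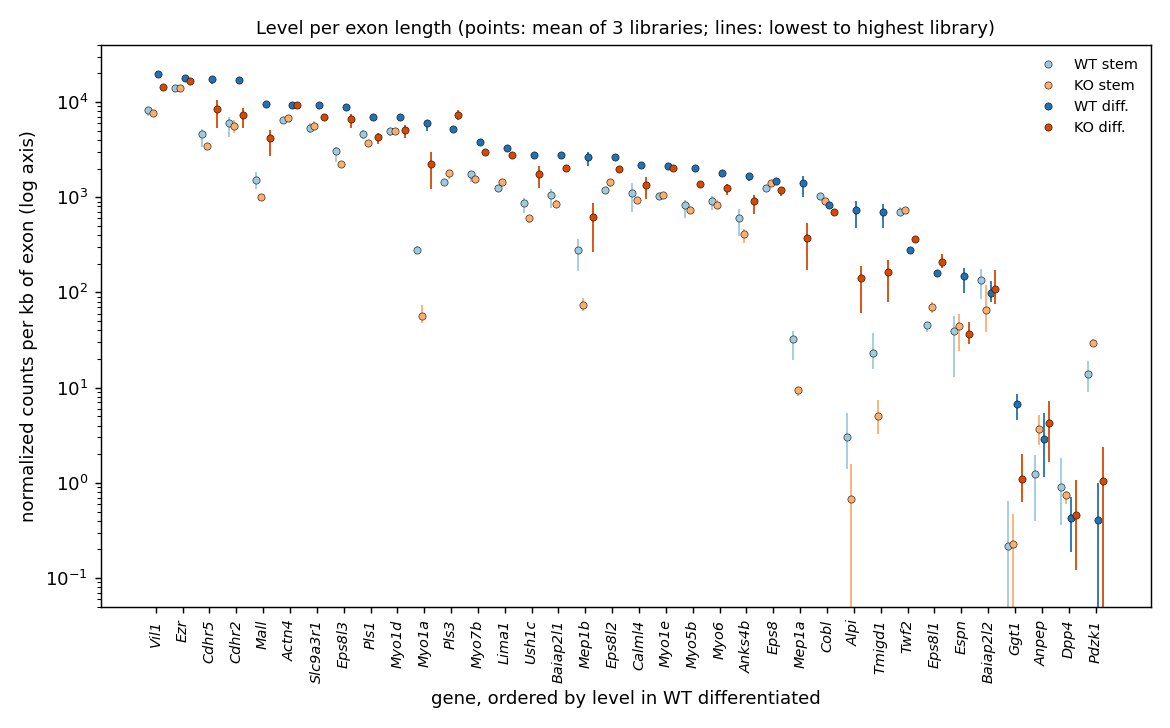
Mean normalized counts per kb of exon for the 36 genes (log axis), ordered by the level in WT differentiated libraries, with lines from the lowest to the highest of the 3 libraries of each group; lines that reach the bottom edge go on to 0. Vil1, Ezr, Cdhr5 and Cdhr2 lie at the top in WT differentiated libraries and Ggt1, Anpep, Dpp4 and Pdzk1 at the bottom.

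When Wnt-3A was withdrawn, most brush border genes rose in both genotypes. In WT 30 of the 35 genes tested rose and 3 fell (Twf2, Cobl and Pdzk1), with a median log2 change of 1.32. Over all genes 36.3% rose and 35.9% fell, with a median of 0.01. In KO 23 rose and 4 fell, with a median of 0.90, beside 34.1% and 33.6% of all genes. These 23 were all among the 30 of WT. Calml4, Cdhr2, Espn, Ggt1, Myo1d and Pls1 rose in WT and did not pass the test in KO. Eps8 rose in WT and fell in KO. Dpp4 did not reach the level of 10 in 3 libraries and was not tested. Ggt1 reached it only through the WT differentiated libraries, Alpi nearly only through those of the differentiated condition and Pdzk1 only through those of the stem cell condition, so that they had to differ. Without these 3, 28 of 32 rose and 2 fell in WT (median 1.29) and 22 rose and 3 fell in KO (0.90). Leaving out 1 library at a time left 29 to 30 genes higher in WT and 23 to 26 in KO, the 26 without KO differentiated library 1, when Cdhr2 (0.58), Pls1 (0.33) and Calml4 (0.74) were called higher in KO as well. In KO the replicate numbers were taken to pair the stem and differentiated libraries, although the main fit, which gave the counts above, did not use them. With the numbers of both genotypes as a block within genotype, Calml4 (adjusted p = 0.0488) and Baiap2l2 (adjusted p = 0.0109) were also called higher in KO.

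**Figure D2:**
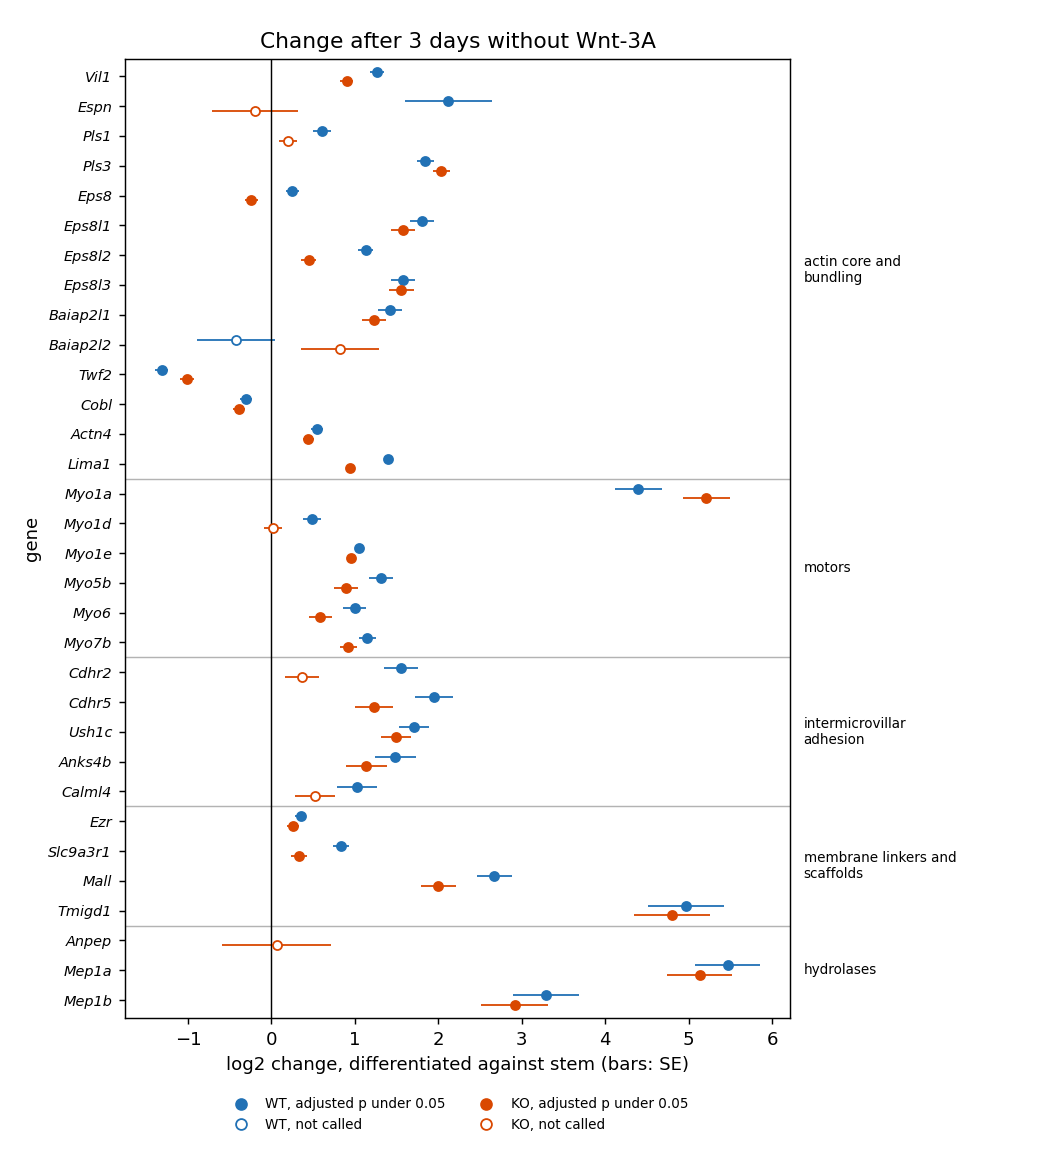
Log2 change between the differentiated and the stem cell condition for 32 of the 35 genes tested, in WT (blue) and KO (orange), with SE bars and filled points where the adjusted p was under 0.05, and no point where a compared group had a library of 3 reads or fewer (Alpi, Ggt1 and Pdzk1, and Anpep in WT). Mep1a, Tmigd1 and Myo1a lie farthest to the right, Twf2 and Cobl lie left of 0, and the KO points of Cdhr2, Espn and Pls1 are open.

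In the differentiated condition, most of the same 35 genes were lower in KO than in WT. Transcripts of 26 fell in KO and 2 rose (Pls3 and Twf2), with a median log2 change of -0.45. Leaving aside Ggt1, which had to differ, 25 of 34 fell. Among all genes tested 13.9% fell and 13.8% rose, with a median of 0.02. Eps8l1, Baiap2l2, Actn4, Myo1e, Ezr, Pdzk1 and Anpep did not pass the test. For 27 of the 35 genes all 3 KO libraries lay below all 3 WT libraries, beside 26.4% of all genes. Without Ggt1 this was 26 of 34. For 3 genes the KO libraries all lay above the WT libraries, beside 26.8%. The number called lower was 15 without WT differentiated library 1, 13 without WT differentiated library 3 and 15 without KO differentiated library 1, and between 21 and 26 without any other single library. With quantile normalization 18 were called lower, and Eps8, Eps8l3, Baiap2l1, Cobl, Lima1, Myo5b, Myo7b and Calml4 lost the call (adjusted p from 0.0505 for Myo5b to 0.231 for Cobl). Within groups the libraries also differed, and KO differentiated library 3 was the highest of its group for 26 of the 35 genes and WT differentiated library 2 the lowest of its group for 29.

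In the stem cell condition few of them differed between genotypes. Myo1a, Tmigd1, Mep1a and Mep1b were lower in KO, and Eps8l1 and Lima1 higher, that is 4 and 2 of 35 beside 3.09% and 3.48% of all genes, with a median of -0.13 (all genes -0.04). At an unadjusted p under 0.05 there were 11 lower and 5 higher, edgeR called 3 and 2, and DESeq2 8 and 2. The counts rested on single libraries, since limma called 0 higher and 11 lower without WT stem library 1, 0 and 2 without WT stem library 2, 1 and 1 without WT stem library 3, 0 and 1 without library 1 or 2 of the KO stem group, and 2 and 7 without KO differentiated library 1, which enters through the shared spread. The 3 genes added without that last library were Pls1 (adjusted p = 0.0263), Ush1c (0.0392) and Mall (0.0193). The genes added without WT stem library 1 were Pls1, Eps8l3, Baiap2l1, Myo5b, Myo7b, Ush1c and Anks4b, from -0.27 for Myo7b to -0.84 for Anks4b, while Eps8l1 and Lima1 lost their call. Without any one of the 3 WT differentiated libraries or KO differentiated library 2 or 3, 1 was higher. The 4 genes lower in KO in the stem cell condition were also lower after differentiation, and Lima1 was called in opposite directions.

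**Figure D3:**
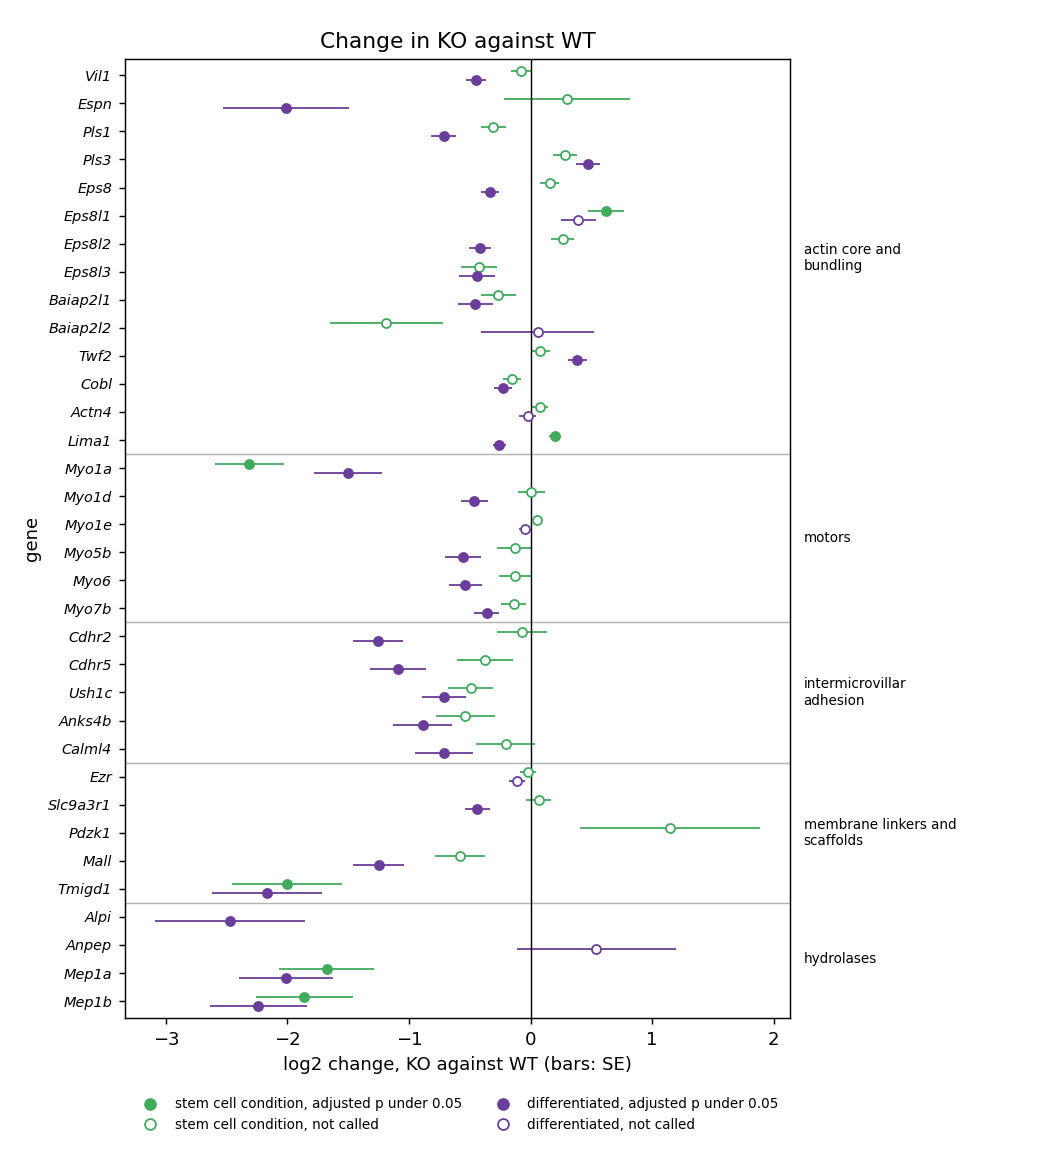
Log2 change of KO against WT for 34 of the 35 genes tested, in the stem cell condition (green) and the differentiated condition (purple), with SE bars and filled points where the adjusted p was under 0.05, and no point where a compared group had a library of 3 reads or fewer (Ggt1, Alpi and Anpep in the stem cell condition and Pdzk1 after differentiation). Most purple points lie left of 0, with Pls3, Eps8l1, Baiap2l2, Twf2 and Anpep on the right, and the green points lie near 0 for most actin core genes and motors other than Myo1a.

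The difference between the genotype effects of the 2 conditions was itself tested as an interaction. It was called for 5 of 35 genes, Eps8, Eps8l2, Lima1, Cdhr2 and Slc9a3r1, all with a lower log2 change after Wnt-3A withdrawal in KO than in WT, beside 3.58% of all genes. In the other direction limma called 0 of 35, beside 5.12% of all genes, while 1 had an unadjusted p under 0.05 and edgeR and DESeq2 also called 0. The median was -0.38, and it was -0.07 without WT stem library 1 and KO differentiated library 1, a setting chosen after seeing the data that called 2 higher and 5 lower. The count of 5 became 3 without KO stem library 1. It fell to 2 without library 2 of that group or WT differentiated library 1. It was 3 without WT differentiated library 2, 2 without WT differentiated library 3 and 3 without KO differentiated library 1, which also called Myo1a in the other direction.

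**Figure D4:**
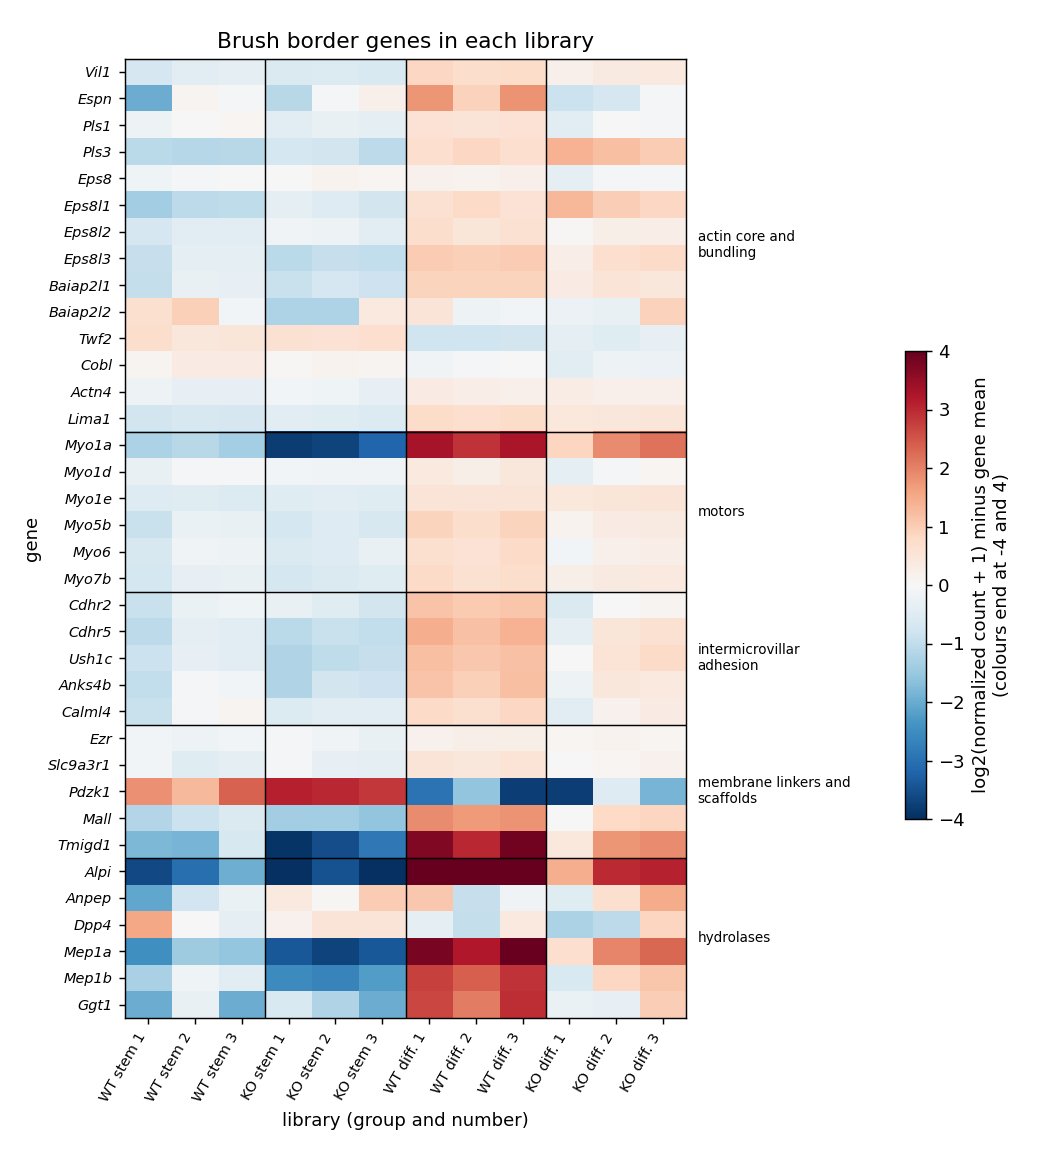
Log2(normalized count + 1) minus the mean of each gene over the 12 libraries, for the 36 genes (rows, by role) and the 12 libraries (columns, by group). WT differentiated libraries are red in most rows, KO differentiated libraries paler with library 1 the palest, and Pls3 and Eps8l1 are at their reddest in KO differentiated libraries.

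Of the 14 genes of the actin core, 11 rose and 2 fell after Wnt-3A withdrawal in WT. In KO 8 rose and 3 fell (median log2 0.63), and 9 were lower and 2 higher in KO than in WT after differentiation (median log2 -0.30). The 2 higher (14.3%) were near the share of all genes. For each role below, the shares of all genes after Wnt-3A withdrawal are 36.3% higher and 35.9% lower in WT and 34.1% and 33.6% in KO. In KO against WT they are 13.8% and 13.9% after differentiation and 3.48% and 3.09% in the stem cell condition. Villin, encoded by Vil1 (ENSMUSG00000026175, chromosome 1, 74409376 to 74435559, GRCm38), bundles and severs actin and is a defining brush border protein. Vil1 stood at 25469, 29817 and 31571 in WT stem, 27314, 27683 and 26833 in KO stem, 73097, 67017 and 68248 in WT differentiated and 47147, 52608 and 53118 in KO differentiated libraries. The differentiated groups lay above the stem groups without overlap, and the KO differentiated libraries all lay below the WT ones. It rose in WT (log2 1.27 ± 0.08, adjusted p = 8.21e-08) and in KO (log2 0.90 ± 0.08, adjusted p = 1.90e-06). It was lower in KO after differentiation, at 0.734 of the WT mean (log2 -0.45 ± 0.08, adjusted p = 0.00337), which held on leaving out any 1 library. Before Wnt-3A withdrawal the difference was -0.08 ± 0.08 with a 95% interval of -0.26 to 0.10 (adjusted p = 0.578).

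Espin (Espn), a strong bundler that sets microvillus length, varied widely between libraries. Its libraries held 108, 463 and 417 in WT stem, 199, 403 and 487 in KO stem, 1440.3, 809 and 1481 in WT differentiated and 237, 269 and 406 in KO differentiated organoids. Only the WT differentiated libraries stood clear of the rest. Espn rose in WT (log2 2.12 ± 0.52, adjusted p = 0.00309) and gave -0.20 ± 0.52 in KO (adjusted p = 0.752). It was 4.09-fold lower in KO after differentiation (log2 -2.02 ± 0.52, adjusted p = 0.0159). The call was lost without WT differentiated library 1 or 3 or KO differentiated library 1 (highest adjusted p = 0.0635).

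The plastins, or fimbrins, parted ways. Plastin 1 (Pls1, ENSMUSG00000049493, chromosome 9, 95752642 to 95845311), the intestinal form, measured 16010.0, 18428 and 19609 in WT stem, 13962, 15127 and 14428 in KO stem, 27676, 26417 and 27888 in WT differentiated and 13968, 18539 and 17795 in KO differentiated libraries. Plastin 3 (Pls3, ENSMUSG00000016382, chromosome X, 75785654 to 75875182), the more widely expressed form, measured 6309, 6028 and 6214 in WT stem, 8156, 7985 and 6516 in KO stem, 21458, 23678 and 21459.9 in WT differentiated and 34984, 30614 and 27210.2 in KO differentiated libraries. After differentiation the KO libraries lay below all WT libraries for Pls1 and above all of them for Pls3. Pls1 fell to 0.614 of WT (log2 -0.72 ± 0.10, adjusted p = 0.00125) and Pls3 rose to 1.39 times WT (log2 0.47 ± 0.10, adjusted p = 0.00687), and both calls held on leaving out any 1 library. Pls1 rose after Wnt-3A withdrawal in WT (log2 0.61 ± 0.10, adjusted p = 2.35e-04) and changed by 0.20 ± 0.10 in KO (adjusted p = 0.108). Pls3 rose in both (log2 1.84 ± 0.10, adjusted p = 2.21e-08 in WT and log2 2.03 ± 0.10, adjusted p = 1.87e-08 in KO). Neither passed the test in the stem cell condition, with -0.31 ± 0.10 for Pls1 (adjusted p = 0.0968, and 0.0363 with DESeq2) and 0.28 ± 0.10 for Pls3 (adjusted p = 0.117).

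**Figure D5:**
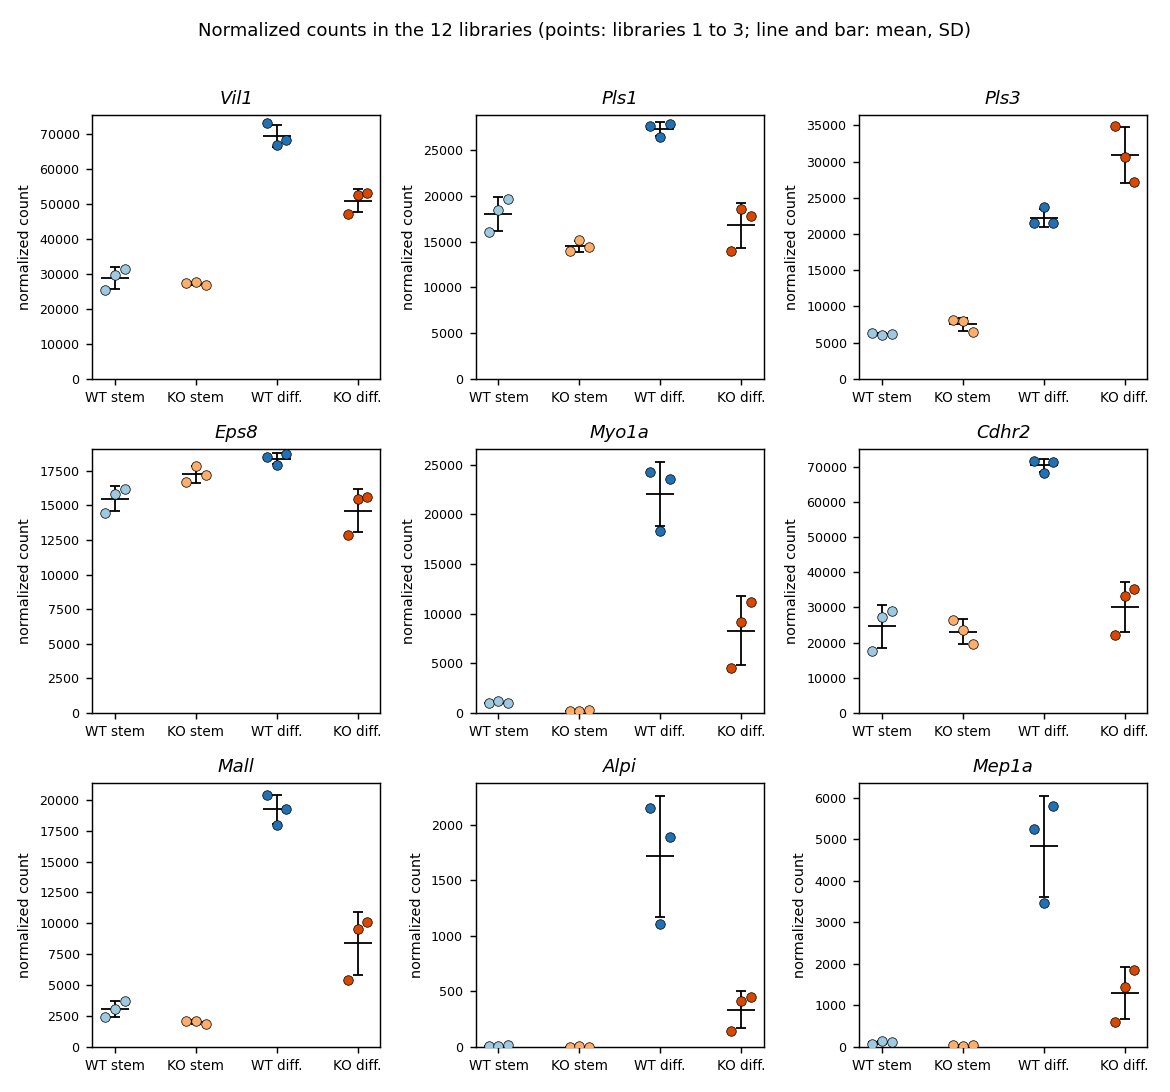
Normalized counts of 9 brush border genes (linear axes that start at 0), with 1 point per library and a bar with whiskers for the group mean ± SD. For Vil1, Pls1, Eps8, Myo1a, Cdhr2, Mall, Alpi and Mep1a all KO differentiated libraries lie below the WT differentiated libraries, and for Pls3 above them.

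Eps8 caps actin filaments at the microvillus tip. Eps8 libraries held 14443, 15808 and 16171 in WT stem, 16688, 17849 and 17159.9 in KO stem, 18506, 17939 and 18689 in WT differentiated and 12846, 15447 and 15577 in KO differentiated organoids. The KO libraries lay above the WT libraries before Wnt-3A withdrawal, a difference that was not called (log2 0.16 ± 0.08, adjusted p = 0.229), and below them afterwards. The results that follow are for Eps8. It rose slightly in WT (log2 0.25 ± 0.08, adjusted p = 0.011, adjusted p = 0.112 with quantile normalization) and fell in KO (log2 -0.24 ± 0.08, adjusted p = 0.0142, a call lost without KO stem library 2). The interaction was called (log2 -0.49 ± 0.11, adjusted p = 0.0221), though not without KO stem library 2 or WT differentiated library 1 or 3. Against WT it was 0.796 after differentiation (log2 -0.34 ± 0.08, adjusted p = 0.00903, adjusted p = 0.0585 with quantile normalization).

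Eps8l2, a relative, also changed its order between genotypes. Values were 5783, 6689.6 and 6874 in WT stem, 8327, 7981 and 6948 in KO stem, 15027, 13085 and 14089 in WT differentiated and 9579, 10835 and 11232 in KO differentiated libraries. KO was above WT in the stem cell condition without overlap (0.27 ± 0.09, adjusted p = 0.111) and below it after differentiation (log2 -0.42 ± 0.09, adjusted p = 0.00863), with an interaction called on leaving out any 1 library (log2 -0.68 ± 0.13, adjusted p = 0.0161). Unlike Eps8 it rose in both genotypes (log2 1.13 ± 0.09, adjusted p = 6.25e-07 in WT and log2 0.45 ± 0.09, adjusted p = 0.00125 in KO). Exons of Eps8l2 share 32.2% of their bases with the opposite-strand gene B230206H07Rik, which had a mean of 2.16.

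Eps8l1 was the relative that stood higher in KO. Its libraries gave 232, 294 and 298 in WT stem, 473, 429 and 363 in KO stem, 932, 1028 and 909 in WT differentiated and 1519, 1193 and 1089 in KO differentiated organoids. All KO libraries exceeded all WT libraries in either condition. The call was made in the stem cell condition (log2 0.62 ± 0.15, adjusted p = 0.0294) and lost without WT stem library 1 or 2 or KO stem library 1 or 2. After differentiation the change was 0.39 ± 0.15 (adjusted p = 0.066, and 0.0291 with DESeq2 and 0.035 without WT stem library 1). Eps8l1 rose in both genotypes (log2 1.81 ± 0.15, adjusted p = 5.19e-07 in WT and log2 1.58 ± 0.15, adjusted p = 2.25e-06 in KO).

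Eps8l3, the last relative, had 5317, 7696 and 7695 in WT stem, 4761, 5353 and 5146 in KO stem, 20468, 19744 and 20583 in WT differentiated and 12164, 15997 and 17180.0 in KO differentiated libraries. It rose in WT (log2 1.57 ± 0.15, adjusted p = 1.80e-06) and KO (log2 1.56 ± 0.15, adjusted p = 2.79e-06), with an interaction of -0.02 ± 0.21 (95% interval -0.48 to 0.44, adjusted p = 0.967). KO was lower after differentiation (log2 -0.44 ± 0.15, adjusted p = 0.0473), but not without any one of the 3 WT libraries or KO library 1 or 2 (highest adjusted p = 0.183), nor with edgeR (adjusted p = 0.0689). An antisense gene, 4933431E20Rik, with a mean of 404, shares 42.5% of its exon bases, and without a stated strand the reads of both cannot be told apart.

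The remaining actin genes shape, grow or trim filaments. Baiap2l1, an I-BAR protein that bends the membrane at the microvillus tip, measured 2571, 4078 and 3961 in WT stem, 2708, 3119.7 and 2836 in KO stem, 9267, 9254 and 9279 in WT differentiated and 6256, 7195 and 6887 in KO differentiated libraries. It rose in both genotypes (1.42 ± 0.14 in WT and 1.23 ± 0.14 in KO) and was lower in KO after differentiation (log2 -0.45 ± 0.14, adjusted p = 0.0369), a call lost on leaving out any 1 of the 6 differentiated libraries (highest adjusted p = 0.126). Baiap2l2, its relative, had means of 368 ± 125, 179.7 ± 128, 269 ± 75.6 and 295 ± 152 (SD, n = 3) in the same order and passed the test in no contrast, except that with the replicate block within genotype its rise in KO (adjusted p = 0.0109) and its interaction (adjusted p = 0.0491) were called.

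Twinfilin 2 (Twf2), an actin monomer binding and capping protein, went against the others. It held 1828, 1517 and 1546 in WT stem, 1718, 1659 and 1783 in KO stem, 642, 641 and 672 in WT differentiated and 874, 805 and 879 in KO differentiated libraries. It fell in WT (log2 -1.32 ± 0.08, adjusted p = 4.68e-08) and in KO (log2 -1.01 ± 0.08, adjusted p = 5.80e-07) and was higher in KO after differentiation (log2 0.39 ± 0.08, adjusted p = 0.00576), in each case also on leaving out any 1 library. Cobl, cordon-bleu, an actin nucleator, had 7540.4, 8714 and 8788 in WT stem, 7292, 7710.1 and 7509 in KO stem, 6402, 6781 and 7000.4 in WT differentiated and 5261, 6095 and 5904 in KO differentiated libraries. Cobl also fell in both genotypes (log2 -0.31 ± 0.07, adjusted p = 0.00269 in WT and log2 -0.39 ± 0.07, adjusted p = 6.67e-04 in KO). Its lower level in KO after differentiation (log2 -0.23 ± 0.07, adjusted p = 0.0411) was lost without any one of the WT libraries or KO library 1 or 3, and with edgeR (adjusted p = 0.076) and quantile normalization (adjusted p = 0.231).

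Lima1 (EPLIN), which crosslinks and stabilizes filaments, was another gene with an interaction. Libraries gave 9169, 9879 and 9586 in WT stem, 11460.2, 10998 and 10457 in KO stem, 25386, 24463 and 25798 in WT differentiated and 20764, 21057 and 21547 in KO differentiated organoids. KO exceeded WT before Wnt-3A withdrawal (log2 0.20 ± 0.05, adjusted p = 0.042) and lay below it afterwards (log2 -0.26 ± 0.05, adjusted p = 0.00544, adjusted p = 0.067 with quantile normalization). The interaction (log2 -0.46 ± 0.07, adjusted p = 0.0107) held on leaving out any 1 library, whereas the stem cell call was lost without any one of the WT stem libraries or KO stem library 1 or 2. Actn4, alpha-actinin 4, a crosslinker not limited to microvilli, had means of 39375 ± 1729, 41651 ± 3014, 57527 ± 2355 and 56545 ± 2115 (SD, n = 3) in WT stem, KO stem, WT differentiated and KO differentiated libraries. It rose in both genotypes (0.55 ± 0.07 and 0.44 ± 0.07) and did not pass the test between genotypes, with an interval of -0.17 to 0.12 after differentiation (adjusted p = 0.815).

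All 6 motors rose after Wnt-3A withdrawal in WT (median log2 1.10) and 5 in KO (0.91). After differentiation 5 were lower in KO (-0.50), of which Myo1a changed most. Brush border myosin 1A (Myo1a, ENSMUSG00000025401, chromosome 10, 127705170 to 127720940) bridges the actin core and the membrane and is made mainly in absorptive cells. Its libraries held 1019, 1146 and 959 in WT stem, 177, 187 and 272 in KO stem, 24267, 18328 and 23620.0 in WT differentiated and 4508, 9177 and 11209 in KO differentiated organoids. No 2 groups overlapped. KO was 4.91-fold lower in the stem cell condition (log2 -2.31 ± 0.28, adjusted p = 9.10e-04) and 2.66-fold lower after differentiation (log2 -1.50 ± 0.28, adjusted p = 0.00393), and both calls held on leaving out any 1 library. The rise after Wnt-3A withdrawal was 21.2-fold in WT (log2 4.40 ± 0.28, adjusted p = 8.02e-08) and 39.2-fold in KO (log2 5.21 ± 0.28, adjusted p = 3.50e-08). The interaction of 0.81 ± 0.40 was not called (adjusted p = 0.214).

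The other class I myosins were Myo1d and Myo1e. Myo1d, which can occupy the microvillus membrane with Myo1a, gave 28453, 33397 and 33846 in WT stem, 32109, 31787 and 31896 in KO stem, 45183, 40828 and 48042 in WT differentiated and 27069.8, 33813 and 37103 in KO differentiated libraries. It rose in WT (log2 0.49 ± 0.11, adjusted p = 0.00191) and stayed within -0.22 to 0.26 in KO (log2, 95% interval). It was lower in KO after differentiation (log2 -0.46 ± 0.11, adjusted p = 0.0116, lost without WT differentiated library 3). Myo1e, which works in endocytosis and adhesion, had means of 5819 ± 160.5, 6032 ± 82.4, 12032 ± 57.9 and 11647 ± 432 (SD, n = 3) in the same order. It rose in both genotypes (log2 1.05 ± 0.05, adjusted p = 3.58e-09 in WT, log2 0.95 ± 0.05, adjusted p = 1.43e-08 in KO) and gave -0.15 to 0.05 between genotypes after differentiation (adjusted p = 0.459).

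The remaining motors carry cargo or hold tip complexes. Myo5b, which drives apical recycling, measured 5908, 9163 and 9095 in WT stem, 6774, 7708 and 7172 in KO stem, 20547, 18158 and 20399 in WT differentiated and 12146, 14005 and 14074 in KO differentiated libraries. Myo6, the myosin that moves to the minus end of actin filaments, had 8877, 12384 and 11884 in WT stem, 9289.9, 9601 and 11239 in KO stem, 21445, 20585 and 23445 in WT differentiated and 12867, 15854 and 16662 in KO differentiated libraries. Myo7b, which anchors the adhesion complex at the tips, had 9509.8, 12364 and 12616 in WT stem, 9570.0, 10421 and 11132 in KO stem, 26339, 23895 and 25501 in WT differentiated and 18469, 20073 and 20408 in KO differentiated libraries. WT stem library 1 was the lowest for each of them in its group, and after differentiation the KO libraries lay below the WT libraries. The difference of KO from WT after differentiation was -0.56 ± 0.14 for Myo5b (adjusted p = 0.0167), -0.54 ± 0.13 for Myo6 (adjusted p = 0.0139) and -0.36 ± 0.10 for Myo7b (adjusted p = 0.0232) on the log2 scale. Myo6 lost the call without WT differentiated library 3 or KO differentiated library 1, and the other two also without WT differentiated library 1 (highest adjusted p = 0.0666 for Myo5b, 0.0605 for Myo6 and 0.0868 for Myo7b). All 3 rose after Wnt-3A withdrawal, Myo5b 2.45-fold, Myo6 1.98-fold and Myo7b 2.2-fold in WT and 1.86-fold, 1.51-fold and 1.89-fold in KO.

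All 5 genes of intermicrovillar adhesion rose after Wnt-3A withdrawal in WT (median log2 1.55) and 3 in KO (1.14). After differentiation all 5 were lower in KO (-0.89). Limma, in the stem cell condition, called 0 of 5 between genotypes (2 at an unadjusted p under 0.05, 0 by edgeR and 1 by DESeq2). Cdhr2, protocadherin 24 (ENSMUSG00000034918, chromosome 13, 54701461 to 54736662), is the tip-link cadherin whose promoter is printed above with its Hnf4 letters. It gave 17567, 27388 and 28968 in WT stem, 26384, 23468 and 19518 in KO stem, 71718, 68335 and 71341 in WT differentiated and 22016, 33210.0 and 35329 in KO differentiated libraries. KO differentiated library 1 lay within the range of the KO stem libraries and the other 2 above it, while all WT differentiated libraries lay far above the WT stem libraries. Cdhr2 was 2.33-fold lower in KO after differentiation (log2 -1.25 ± 0.21, adjusted p = 0.00221, held on leaving out any 1 library). It rose in WT (log2 1.55 ± 0.21, adjusted p = 3.31e-05) and changed by 0.37 ± 0.21 in KO (95% interval -0.09 to 0.82, adjusted p = 0.137). Its interaction (log2 -1.18 ± 0.29, adjusted p = 0.033) was the largest of the 5 called and was lost without KO stem library 1 or 2, any one of the WT differentiated libraries or KO differentiated library 1 (highest adjusted p = 0.0809). With the replicate numbers as a block within genotype, in WT as well as KO, it was not called (adjusted p = 0.0519).

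Cdhr5, the mucin-like partner cadherin (ENSMUSG00000025497, chromosome 7, 141269083 to 141276786), held 9174, 14413 and 14105 in WT stem, 8923, 10147 and 9493 in KO stem, 51176, 42452 and 48982 in WT differentiated and 14759.5, 26087 and 28817 in KO differentiated libraries. It rose 3.78-fold in WT (log2 1.94 ± 0.23, adjusted p = 1.27e-05) and 2.44-fold in KO (log2 1.23 ± 0.23, adjusted p = 5.68e-04). It was 2.05-fold lower in KO after differentiation (log2 -1.09 ± 0.23, adjusted p = 0.00675), without overlap, a call that held on leaving out any 1 library. The interaction was not called (-0.71 ± 0.33, adjusted p = 0.184).

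Ush1c, Anks4b and Calml4 form the platform under these cadherins. Ush1c, harmonin, measured 2613, 3791 and 3508 in WT stem, 2085, 2376 and 2512 in KO stem, 11064, 10168 and 10791 in WT differentiated and 4773, 7004 and 8226 in KO differentiated libraries. Anks4b, an ankyrin-repeat scaffold, had 1508, 2897 and 2750.2 in WT stem, 1303, 1792 and 1685 in KO stem, 6658, 5789 and 6859.5 in WT differentiated and 2586, 4073 and 3964 in KO differentiated libraries. Calml4, a calmodulin-like light chain of Myo7b, had 2517, 4551 and 5083 in WT stem, 3236, 3441 and 3407 in KO stem, 7993, 7308 and 8390.4 in WT differentiated and 3511, 5365 and 5906 in KO differentiated libraries. For all 3 the KO differentiated libraries lay below every WT differentiated library. The log2 differences were -0.71 ± 0.18 for Ush1c (adjusted p = 0.0152), -0.89 ± 0.24 for Anks4b (adjusted p = 0.0208) and -0.71 ± 0.24 for Calml4 (adjusted p = 0.0461, and 0.0584 with edgeR). Calls were lost without WT differentiated library 1 or 3 for Ush1c, also without KO library 1 for Anks4b, and without any one of the WT libraries or KO library 1 or 2 for Calml4 (highest adjusted p = 0.0517, 0.0871 and 0.181). The rise after Wnt-3A withdrawal was 1.71, 1.49 and 1.02 in WT and 1.49, 1.14 and 0.52 in KO, where Calml4 did not pass the test (adjusted p = 0.0746, but 0.0112 without WT stem library 1 and 0.0153 without KO differentiated library 1).

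Of the 5 membrane linkers and scaffolds 4 rose and 1 fell after Wnt-3A withdrawal in either genotype (median log2 0.83 in WT and 0.33 in KO), and 3 were lower in KO after differentiation (-0.44). The 1 that fell was Pdzk1, which had to differ and is no result. Ezrin ties actin to membrane proteins, and Ezr held 47864, 44458 and 47021 in WT stem, 49285, 46369 and 41840.2 in KO stem, 57089.6, 60241 and 60057 in WT differentiated and 54140.3, 56423 and 53561 in KO differentiated libraries. It rose slightly in WT (log2 0.35 ± 0.07, adjusted p = 6.26e-04) and KO (log2 0.26 ± 0.07, adjusted p = 0.00521). Although the KO differentiated libraries all lay below the WT ones, the difference of -0.11 ± 0.07 did not pass the test (interval -0.26 to 0.04, adjusted p = 0.239). Slc9a3r1 (NHERF1), the PDZ adaptor bound by ezrin, held 11689.6, 9114 and 9743 in WT stem, 12044, 10169 and 9732 in KO stem, 18067, 17406 and 18691 in WT differentiated and 12556, 13273 and 14226 in KO differentiated libraries. It was lower in KO after differentiation (log2 -0.44 ± 0.10, adjusted p = 0.00947), which held on leaving out any 1 library. Its interaction (-0.50 ± 0.14) passed by little (adjusted p = 0.0498) and was lost without any single library other than WT stem library 1 (highest adjusted p = 0.121, and 0.0655 with the block within genotype).

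Mall, a MAL-like proteolipid of apical membrane domains, changed more than these. Libraries gave 2444, 3028 and 3714 in WT stem, 2095, 2105 and 1859.7 in KO stem, 20396, 18002 and 19279 in WT differentiated and 5449, 9564 and 10108 in KO differentiated organoids. It rose 6.28-fold in WT (log2 2.67 ± 0.21, adjusted p = 3.86e-07) and 4.15-fold in KO (log2 2.00 ± 0.21, adjusted p = 5.79e-06). It was 2.3-fold lower in KO after differentiation (log2 -1.25 ± 0.21, adjusted p = 0.00231, held on leaving out any 1 library). Also before Wnt-3A withdrawal the KO libraries lay below the WT libraries, with -0.58 ± 0.21 (adjusted p = 0.117, and 0.033 with DESeq2).

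Tmigd1, an adhesion molecule of the immunoglobulin family at the brush border, was low in stem cells and high after differentiation. It had 24.5, 23.3 and 55.4 in WT stem, 4.85, 6.6 and 11.2 in KO stem, 1158, 712 and 1279 in WT differentiated and 117, 299 and 326 in KO differentiated libraries, that is 84, 29, 2677 and 912 reads. No KO library reached a WT library of its condition. KO was 4.55-fold lower in the stem cell condition (SE of the log2 change 0.45, adjusted p = 0.0256, lost without WT stem library 3 or KO stem library 1 or 2) and 4.24-fold lower after differentiation (log2 -2.17 ± 0.45, adjusted p = 0.00644, held on leaving out any 1 library).

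Pdzk1, a PDZ scaffold of apical transporters, was the exception among the scaffolds, with more reads before Wnt-3A withdrawal than after. It measured 47.3, 32.1 and 68.1 in WT stem, 115, 108 and 94.7 in KO stem, 0.763, 3.58 and 0 in WT differentiated and 0, 8.55 and 2.73 in KO differentiated libraries, from 117, 453, 4 and 12 reads. As Pdzk1 passed the filter only through the stem cell libraries, it had to be lower after Wnt-3A withdrawal. Its calls there (adjusted p = 1.58e-04 in WT and 9.39e-05 in KO) are no result. No fold is given for them because some libraries held 3 reads or fewer. Between genotypes Pdzk1 did not pass the test (adjusted p = 0.363 and 0.502). Gpr89, on the opposite strand with a mean of 2210, shares 37.5% of the exon bases of Pdzk1.

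Of the surface hydrolases Mep1a and Mep1b rose after Wnt-3A withdrawal in both genotypes, and Alpi, Mep1a and Mep1b were lower in KO after differentiation. Alpi, the intestinal alkaline phosphatase (ENSMUSG00000079440, chromosome 1, 87098002 to 87101606), held 3.26, 5.54 and 12.7 in WT stem, 1.08, 3.67 and 0 in KO stem, 2153, 1107 and 1888 in WT differentiated and 142, 411 and 447 in KO differentiated libraries. The stem cell groups had 18 and 7 reads in all, and the differentiated groups 4580 and 1226. As Alpi passed the filter nearly only through the differentiated libraries, it had to be higher there. Its calls after Wnt-3A withdrawal (adjusted p = 4.28e-07 in WT and 1.34e-06 in KO) are no result. It was 5.15-fold lower in KO after differentiation (log2 -2.47 ± 0.62, adjusted p = 0.0139), a call lost without WT differentiated library 1 or 3 or KO differentiated library 1 (highest adjusted p = 0.0592). Reads that match its close copies Akp3 (listed at 0 in all libraries) and Alppl2 (2.04 to 20.4) as well are uncertain.

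Meprins are zinc proteases of the brush border, with alpha and beta subunits. Mep1a (ENSMUSG00000023914, chromosome 17, 43474324 to 43502812) measured 66.8, 137 and 128 in WT stem, 35, 27.9 and 34.6 in KO stem, 5237, 3458 and 5789.7 in WT differentiated and 600.3, 1446 and 1842 in KO differentiated libraries. Mep1b measured 439, 954 and 799 in WT stem, 179.9, 168 and 228 in KO stem, 7083, 5629 and 7898 in WT differentiated and 692, 1889 and 2285 in KO differentiated libraries. Both subunits were lower in every KO library than in any WT library of the same condition. After differentiation Mep1a was 3.73-fold lower (log2 -2.01 ± 0.39, adjusted p = 0.0045) and Mep1b 4.23-fold lower (log2 -2.24 ± 0.40, adjusted p = 0.00304), and both calls held on leaving out any 1 library. Mep1a in the stem cell condition was 3.41-fold lower (log2 -1.68 ± 0.39, adjusted p = 0.0278, and adjusted p = 0.0608 with edgeR) and Mep1b 3.8-fold lower (log2 -1.86 ± 0.40, adjusted p = 0.0203), calls that were lost without WT stem library 2 or 3 or KO stem library 1 or 2, and for Mep1a also without KO stem library 3. From low stem cell levels Mep1a rose 43.6-fold in WT and 39.9-fold in KO, and Mep1b 9.41-fold and 8.45-fold (adjusted p = 1.83e-07, 4.64e-07, 1.50e-05 and 5.11e-05).

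The last 3 enzymes had few reads. Ggt1, gamma-glutamyltransferase 1, had 0, 2.22 and 0 in WT stem, 1.62, 0.734 and 0 in KO stem, 24.4, 15.5 and 29.5 in WT differentiated and 2.29, 2.14 and 6.82 in KO differentiated libraries, from 2, 4, 58 and 15 reads. As only the WT differentiated libraries reached the level of 10, Ggt1 had to be higher there, and its calls (higher after Wnt-3A withdrawal in WT and lower in KO after differentiation) are no result. The second was lost without KO differentiated library 1 (adjusted p = 0.0554). Anpep (aminopeptidase N) had means of 5.08 ± 3.25, 15 ± 5.72, 12 ± 9.03 and 17.6 ± 11.7 (SD, n = 3) and passed the test in no contrast. Dpp4 (dipeptidyl peptidase 4) held 11.4, 3.32 and 2.31 in WT stem, 3.77, 5.14 and 5.09 in KO stem, 2.29, 1.19 and 4.54 in WT differentiated and 0.762, 1.07 and 6.82 in KO differentiated libraries and was not tested. Both are abundant enzymes of the small intestinal brush border.

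Related genes outside the 36 were read from lists chosen with earlier results of these data known. The shares of all genes to read them against are 13.8% higher and 13.9% lower in KO after differentiation, 36.3% higher and 35.9% lower after Wnt-3A withdrawal in WT and 34.1% and 33.6% in KO. Other apical hydrolases and membrane proteins (19 listed, 12 tested) were lower in KO for 6 of 12 after differentiation, with a median of -0.99. In this list 0 were higher with limma, edgeR, DESeq2 or at an unadjusted p under 0.05. In the stem cell condition limma called 2 of these 12 lower in KO (16.7%, beside 3.09% of all genes) and 0 higher (1 by DESeq2). After Wnt-3A withdrawal 12 of these 12 rose in WT and 9 in KO. Some genes of the related lists and markers may have passed the filter only through libraries where they are high. Such genes had to differ, and this was not examined, so the 12 of 12 cannot be read as a result by itself. Dpep1, a membrane dipeptidase, fell from 1046 to 164 (log2 -2.70 ± 0.40, adjusted p = 0.00135). Among general actin and terminal web genes 5 of 27 rose (18.5%) and 8 fell (29.6%) in KO after differentiation, with a median of -0.11, so that the share that rose was near that of all genes. After Wnt-3A withdrawal 19 rose and 1 fell in WT and 16 and 1 in KO. Fscn1, fascin, a bundler of other protrusions, rose from 70.8 to 278 (log2 1.86 ± 0.60, adjusted p = 0.0394, and 0.149 without KO differentiated library 1).

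Of the ezrin partners and apical polarity genes 3 of 20 tested rose (15%, near the 13.8% of all genes) and 9 fell (45%, beside 13.9%) in KO after differentiation, with a median of -0.23, and after Wnt-3A withdrawal 15 rose and 1 fell in WT and 14 and 1 in KO. Pdzd3, the NHERF4 adaptor, fell from 151 to 52.1 (log2 -1.76 ± 0.55, adjusted p = 0.0367, and 0.133 without KO differentiated library 1), and Slc9a3r2, the NHERF2 adaptor, rose from 180.1 to 377 (log2 1.05 ± 0.16, adjusted p = 0.00141). Apical trafficking genes gave 2 higher (16.7%, near that of all genes) and 3 lower (25%) of 12, with a median of -0.03 (all genes 0.02), and after Wnt-3A withdrawal 7 rose (58.3%, beside 36.3%) and 1 fell in WT and 7 and 2 in KO. Rab11fip5, a Rab11 effector, rose in KO in both conditions (0.98 ± 0.11 in the stem cell condition and 0.93 ± 0.11 after differentiation, adjusted p = 6.54e-04 and 5.27e-04). Of the stereocilia genes related to the microvillus, 1 of 7 tested (17 listed) was lower in KO after differentiation, a share of 14.3% beside 13.9% of all genes, namely Myo7a (log2 -0.44 ± 0.10, adjusted p = 0.00833), and 0 were higher with limma, edgeR, DESeq2 or at an unadjusted p under 0.05. Of these 7, 4 rose (57.1%) and 1 fell (14.3%) after Wnt-3A withdrawal in either genotype, beside 36.3% and 35.9% of all genes in WT.

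Of 14 transcription factors of absorptive cells 7 were lower in KO after differentiation (median -0.32) and 3 in the stem cell condition (21.4%, beside 3.09% of all genes), where limma called 0 higher in either case (1 and 1 at an unadjusted p under 0.05, 0 and 0 by edgeR, 0 and 1 by DESeq2). Klf4, a factor of maturing epithelium, fell from 6991 to 3213 (log2 -1.15 ± 0.30, adjusted p = 0.0171, and 0.0706 without KO differentiated library 1) after differentiation. Cdx1, a caudal homeobox factor of the intestine, fell in the stem cell condition from 4255 to 747 (log2 -2.52 ± 0.22, adjusted p = 1.07e-04) and after differentiation from 5388 to 2725 (log2 -1.03 ± 0.22, adjusted p = 0.00745). Hnf4a, a nuclear receptor of the absorptive lineage, fell from 15569.8 to 9938 in the stem cell condition (log2 -0.65 ± 0.15, adjusted p = 0.0284).

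Among the cell type markers, those of absorptive colonocytes moved with most brush border genes, and those of stem cells moved the other way after differentiation. The shares of all genes to read them against are 13.8% higher and 13.9% lower in KO after differentiation. In the stem cell condition they are 3.48% and 3.09%. The 7 absorptive colonocyte markers summed to 129503, 88558 and 141195 in WT differentiated libraries and to 13917, 28280.0 and 40322 in KO differentiated libraries, in which library 1 was again the lowest. All 7 were lower in KO. In the stem cell condition the sums were 396 to 645 in WT and 65.2 to 94.7 in KO, with 4 of 7 lower, and Aqp8 listed at 0 in the 3 WT libraries. The 4 stem cell markers (Lgr5, Ascl2, Smoc2 and Axin2) summed to 9174 to 16833 in WT and 11843 to 15105 in KO stem libraries. There 1 of 4 was lower in KO (25%, beside 3.09% of all genes) and 0 higher with limma, edgeR or DESeq2. In differentiated libraries they summed to 3927 to 4271 in WT and 6997 to 8644 in KO and were all higher in KO. Goblet cell markers summed to 14236 to 19643 in WT and 7323 to 19599 in KO, with 1 of 6 lower (16.7%, near the 13.9% of all genes). Enteroendocrine markers summed to 547 to 1043 and 169 to 518, with 0 of 4 called (limma, and 0 by edgeR, DESeq2 or an unadjusted p under 0.05). Tuft cell markers, some of whose products also bundle actin in their own microvilli, summed to 70.4 to 111 and 89.8 to 115 with 0 of 5 called (likewise by all of these). Epithelial markers summed to 1371528 to 1510202 in WT and 1179677 to 1252048 in KO, and 2 of 5 were lower (Epcam and Krt8). Fibroblast markers lay between 87.7 and 168 in all differentiated libraries and immune and endothelial markers under 14. The part of these cell types in the brush border results was not tested.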

How the data were processed

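Total RNA of 12 mouse colonic organoid cultures (4 groups of 3) was sequenced by the authors, and the deposited values are normalized counts per Ensembl gene (a normalized signal). The submitters' processing notes name GRCm38, Bowtie2, RSEM 1.2.11 and DESeq2 1.18.1, while filters, strand and annotation are not given in the sources used here. Of the values, 100% were whole reads within 0.05 read once each library's step was divided out, which gave 25057534 to 99023592 reads per library, the deeper ones with less counting error. Gene names came from GENCODE release M21 (99.086% of IDs matched).

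Genes that reached a value of 10 in 3 or more libraries entered limma 3.58.1 (R 4.3.3) on log2(value + 1), with a mean-variance trend, 4 group means, two-sided tests and Benjamini-Hochberg adjustment, so fold changes of low genes are understated. The fit was tested on simulated data. Alternatives were pseudocounts of 0.5 and 5, other filters, size factors and spreads, quantile normalization, a fit of only the groups compared, edgeR 4.0.16 and DESeq2 1.42.0 on recovered reads, a replicate block and leaving out each library. No gene's fold is printed or plotted where a compared group had a library of 3 reads or fewer, and the counts and medians over the genes are also given without those that such groups decide.

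All 36 genes are named. Library values are given for Vil1, Myo1a, Myo7b, Cdhr2, Cdhr5, Ezr, Pdzk1, Alpi, Dpp4 and Ggt1, for genes called between genotypes or in the interaction, and for the 2 largest changes per role in WT. Means stand for the rest, and up to 2 genes are named per related list and comparison, some of which are not reported here. The genes and lists were chosen with earlier results of these data known. Between stem and differentiated KO libraries with the same number, deviations from the group means correlated at 0.286, 0.191 and 0.256 across genes, so the numbers of the titles were taken to pair them. WT pairs (0.107, 0.0552 and 0.145) were not taken as paired. WT stem library 1 and KO differentiated library 1, which differ in genotype, correlated at 0.201, so a correlation of this size does not establish a pair.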

Additional observations from a re-analysis of the deposited data

Results flagged for a closer look

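For 5 genes the genotype effect differed between the culture conditions by the interaction term of the limma fit (Benjamini-Hochberg adjusted over 14856 genes, n = 3 libraries a group). The values are log2 differences of the effect after Wnt-3A withdrawal and the effect in the stem cell condition. Cdhr2, the tip-link cadherin, had -1.18 (adjusted p = 0.033), with genotype effects of -0.07 and -1.25 in the stem cell and the differentiated condition. The interaction was -0.68 for Eps8l2 (adjusted p = 0.0161, effects 0.27 and -0.42) and -0.49 for Eps8 (adjusted p = 0.0221, effects 0.16 and -0.34), both of the Eps8 family. It was -0.46 for Lima1 (adjusted p = 0.0107, effects 0.20 and -0.26) and -0.50 for Slc9a3r1 (adjusted p = 0.0498, effects 0.07 and -0.44). Of the effects in the stem cell condition only that of Lima1 was called. Lima1 and Eps8l2 kept the call on leaving out any 1 library, Eps8 lost it in 3, Cdhr2 in 6 and Slc9a3r1 in 11 of 12 such fits, with highest adjusted p of 0.0626, 0.0809 and 0.121. With the replicate block within genotype Cdhr2 (0.0519) and Slc9a3r1 (0.0655) were over the adjusted p threshold of 0.05 and the other 3 under it.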

How the results depend on the processing

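Leaving out 1 library at a time gave 0 to 3 genes higher and 1 to 11 lower in KO in the stem cell condition, 2 to 3 and 13 to 26 after differentiation, 29 to 30 and 3 with Wnt-3A withdrawal in WT, 23 to 26 and 3 to 4 in KO, and 0 to 1 and 2 to 5 for the interaction. In the stem cell condition the number higher (2) was 1 without a filter and 0 in a fit of only the groups compared, and the number lower (4) was 8 with DESeq2, 2 with only the groups compared and 17 without WT stem library 1 and KO differentiated library 1, a setting chosen after seeing the data. That setting gave 2 genes with a higher interaction and 5 lower. The number with a lower interaction (5) was 3 without a filter and 8 with DESeq2. With the replicate number as a block, 7 genes were lower in KO in the stem cell condition and 8 had a lower interaction, and with the block within genotype 1 had a higher and 3 a lower interaction. That fit left Cdhr2 (0.0519) and Slc9a3r1 (0.0655) over the adjusted p threshold and added Baiap2l2 (0.0491), and no other count moved by more than 1.5 times under a block. Titles share numbers between genotypes, but same-condition libraries did not deviate together (r from -0.0511 to 0.157), so the block across genotypes rests on a shared number only. The block within genotype used the numbers of both genotypes, although only the KO libraries were taken as paired. Eps8l3 reversed its interaction, from -0.02 to 0.31 (adjusted p = 0.0345), in the setting chosen after seeing the data, and ran from -0.12 to 0.31 over all fits that left out libraries. Over all genes DESeq2 called 1984 between genotypes in the stem cell condition against 976 with limma, and 2442 against 1292 for the interaction, and edgeR called 635 higher and 308 lower in the stem cell condition against 517 and 459. The cause was not tested. Dpp4, Ggt1 and Pdzk1 rest on few reads, which limits what they can show.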

Other observations

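The plastins changed their balance. Divided by exon length, Pls3 stood at 0.32 ± 0.04 of Pls1 in WT stem libraries, 0.48 ± 0.06 in KO stem, 0.75 ± 0.07 in WT differentiated and 1.74 ± 0.49 in KO differentiated libraries (SD, n = 3). In KO differentiated libraries the ratios were 2.30, 1.52 and 1.40, so that Pls3 exceeded Pls1 in all 3, while the 3 ratios were between 0.706 and 0.823 in WT. The ratio was chosen after the values were seen and was not tested.

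Summed over the 36 genes, normalized counts were 292053, 333772 and 341141 in WT stem, 316961, 314848 and 297285 in KO stem, 690369.8, 642688 and 686026 in WT differentiated and 432382, 499344 and 511759 in KO differentiated libraries. The KO sums lay within the WT range in the stem cell condition and below it after differentiation. The low end of the WT stem range is library 1, and all 3 KO stem sums lay below those of the other 2 WT stem libraries.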
